A study of Mus musculus with 15 samples.

Results

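The genes described here are 8 genes of inflammatory signalling: the chemokine genes Cxcl2, Ccl3 and Ccl4, the cytokine genes Il1b and Tnf, and the NF-kB feedback genes Nfkbia, Nfkbiz and Tnfaip3. They were chosen by name. Each was taken from the probe set annotated with that symbol alone, and all 8 had exactly 1 such probe set among the 19296 genes on the arrays. Their RNA was followed in 4 groups of cells sorted from mouse bone marrow.

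NF-kB is a family of transcription factors that waits in the cytoplasm, held by inhibitor proteins of the IkB family. Signals from Toll-like receptors, the interleukin-1 receptor or TNF receptors lead to the breakdown of IkB, and NF-kB then enters the nucleus and switches on chemokine and cytokine genes. It also switches on feedback genes. Nfkbia encodes IkB alpha, which takes NF-kB back out of the nucleus, and Tnfaip3 encodes A20, a ubiquitin-editing enzyme that stops the signal upstream. Nfkbiz encodes IkB zeta, a nuclear cofactor that raises some NF-kB targets and lowers others. In blood formation these signals can push stem cells towards division and towards the myeloid lineage, and myeloid cells are a main source of the cytokines themselves.

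Gene expression had been measured on 15 Affymetrix arrays of haematopoietic stem cells (HSC) and granulocyte/macrophage progenitors (GMP) from wild-type C57Bl/6 mice, all labelled male. HSC from old mice were on 3 arrays and HSC from young mice on 5. GMP from old mice were on 3 arrays and GMP from young mice on 4. Old mice were 22 to 30 months old and young mice 6 to 12 weeks. The labels name no transgene, altered allele or agent given to the mice. HSC were sorted as Lin-, c-Kit+, Sca1+, Flk2-, CD48- and CD150+ cells, and GMP as Lin-, c-Kit+, Sca1-, FcyR+ and CD34+ cells, both by double sorting of marrow enriched for c-Kit. The labels leave unsaid whether RNA of several mice was pooled for an array, so the p-values measure the spread between arrays, which may be technical.

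Of 11 measured HSC gate and identity genes, 10 were called higher in young HSC than in young GMP and Cd48, which the HSC gate excludes, lower. In old mice 9 were higher and 2 lower. Flt3, the gene of Flk2, which the HSC gate also excludes, was among the 10 called higher in young HSC, by 0.69 ± 0.11 log2 (limma adjusted p = 9.94e-05). It was lower in old HSC, by -0.74 ± 0.14 (adjusted p = 0.000405). The HSC gate reads Flk2 on the cell surface, and the GMP gate does not use Flk2. This RNA difference from GMP therefore cannot test the HSC gate. The 12 GMP gate and identity genes were all called lower in young HSC, and 11 of them in old HSC. Every sample was labelled male, but Xist, the RNA of the inactive X chromosome of females, lay at 8.92 to 11.51 log2 on 7 of the 9 young arrays, against 5.46 to 5.84 on the 6 old arrays. Replicate 1 of young HSC, at 4.72, and replicate 1 of young GMP, at 5.49, were as low as the old arrays. Age and Xist therefore moved together on most arrays. The mean of Y-linked genes lay at 8.45 to 8.80 on the old arrays. In young HSC and young GMP it was lowest on replicate 4, at 4.94 and 5.20, where Xist was highest. On replicate 2 it was 7.12 and 7.20. Young HSC replicates 3 and 5 and young GMP replicate 3 had Xist at 10.02, 10.26 and 8.92. Their Y-linked means were also high, at 8.47, 8.42 and 8.28. Whether RNA of both sexes was pooled for these arrays was not tested. The interquartile range of the values on each array was narrowest within the young groups on their replicate 4 arrays, at 2.21 in HSC and 2.13 in GMP, and lay between 1.96 and 2.33 in old HSC against 2.21 to 2.69 in young HSC.

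RefSeq promoter windows of the GRCm38.p6 build, running from 250 bases before to 50 after a gene's start, were on hand for 6 of the 8 genes, Cxcl2, Ccl3, Il1b, Tnf, Nfkbia and Tnfaip3. They were searched on both strands for the NF-kB consensus site. Of the 6 genes, 3 held it, Cxcl2, Nfkbia and Tnfaip3, and 4.51% of all 32851 windows of this length did. Shown here are the windows of Cxcl2 and Nfkbia, the members whose old and young GMP values did not overlap, and of Ccl3, the member that differed most between HSC and GMP in young mice. Capitals mark the NF-kB consensus site, which in Cxcl2 is found on both strands in overlapping positions:
Cxcl2, chr5:90903649-90903948, plus strand: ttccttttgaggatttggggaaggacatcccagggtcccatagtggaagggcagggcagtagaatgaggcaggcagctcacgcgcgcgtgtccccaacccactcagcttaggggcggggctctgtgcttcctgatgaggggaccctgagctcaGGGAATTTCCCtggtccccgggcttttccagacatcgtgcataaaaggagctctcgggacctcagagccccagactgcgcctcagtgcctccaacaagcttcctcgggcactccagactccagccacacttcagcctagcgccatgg
Nfkbia, chr12:55492598-55492897, minus strand: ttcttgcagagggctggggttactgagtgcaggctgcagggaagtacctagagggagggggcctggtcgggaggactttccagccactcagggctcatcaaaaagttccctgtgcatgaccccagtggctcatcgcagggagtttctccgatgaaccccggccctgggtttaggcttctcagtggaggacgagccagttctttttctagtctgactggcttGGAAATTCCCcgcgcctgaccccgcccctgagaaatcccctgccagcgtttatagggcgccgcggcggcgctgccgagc
Ccl3, chr11:83649329-83649628, minus strand: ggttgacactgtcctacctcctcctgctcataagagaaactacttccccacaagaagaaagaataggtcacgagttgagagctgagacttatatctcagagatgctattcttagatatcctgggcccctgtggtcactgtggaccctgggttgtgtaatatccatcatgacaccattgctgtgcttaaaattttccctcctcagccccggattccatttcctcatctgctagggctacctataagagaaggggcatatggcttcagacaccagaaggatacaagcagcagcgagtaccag

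Counted from the start of the gene, the first Cxcl2 match ran from base -97 to base -88 and the Nfkbia match from base -29 to base -20. Read on the strand of the motif, both genes held the same sequence, GGGAATTTCC. Tnfaip3 held matches that began at bases -125 and -12 of its first start. The letters TATAAA were found on either strand in Il1b, Tnf, Nfkbia and Tnfaip3, and in 13.6% of all windows. The AP-1 letters TGANTCA were found in Tnfaip3, and in 7.81% of all windows. These motifs were chosen after the sequences had been seen. A match describes the letters in the window and does not show that a factor binds there.

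The clearest differences among the 8 genes were between cell types. Ccl3, Cxcl2 and Tnf were lower in HSC than in GMP at both ages, and Nfkbiz was higher in HSC at both ages. In each comparison of cell types 3 of the 8 members were called lower in HSC and 1 higher, at an adjusted p under 0.05 by limma. Of all genes, 24.6% were called in young mice (10.9% lower and 13.6% higher) and 22.2% in old mice (13% lower and 9.25% higher). HSC and GMP arrays did not overlap for 5 of the 8 members in young mice and for 3 in old mice, against 21.3% and 34.7% of all genes. With age, 0 of the 8 were called in HSC, where 11.5% of all genes were, and 0 in GMP, where 0% of all genes were. All values are on the log2 scale of the arrays, on which a difference of 1 is a 2-fold change, and levels of different genes cannot be set against each other because each probe set has its own sensitivity.

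**Figure D1:**
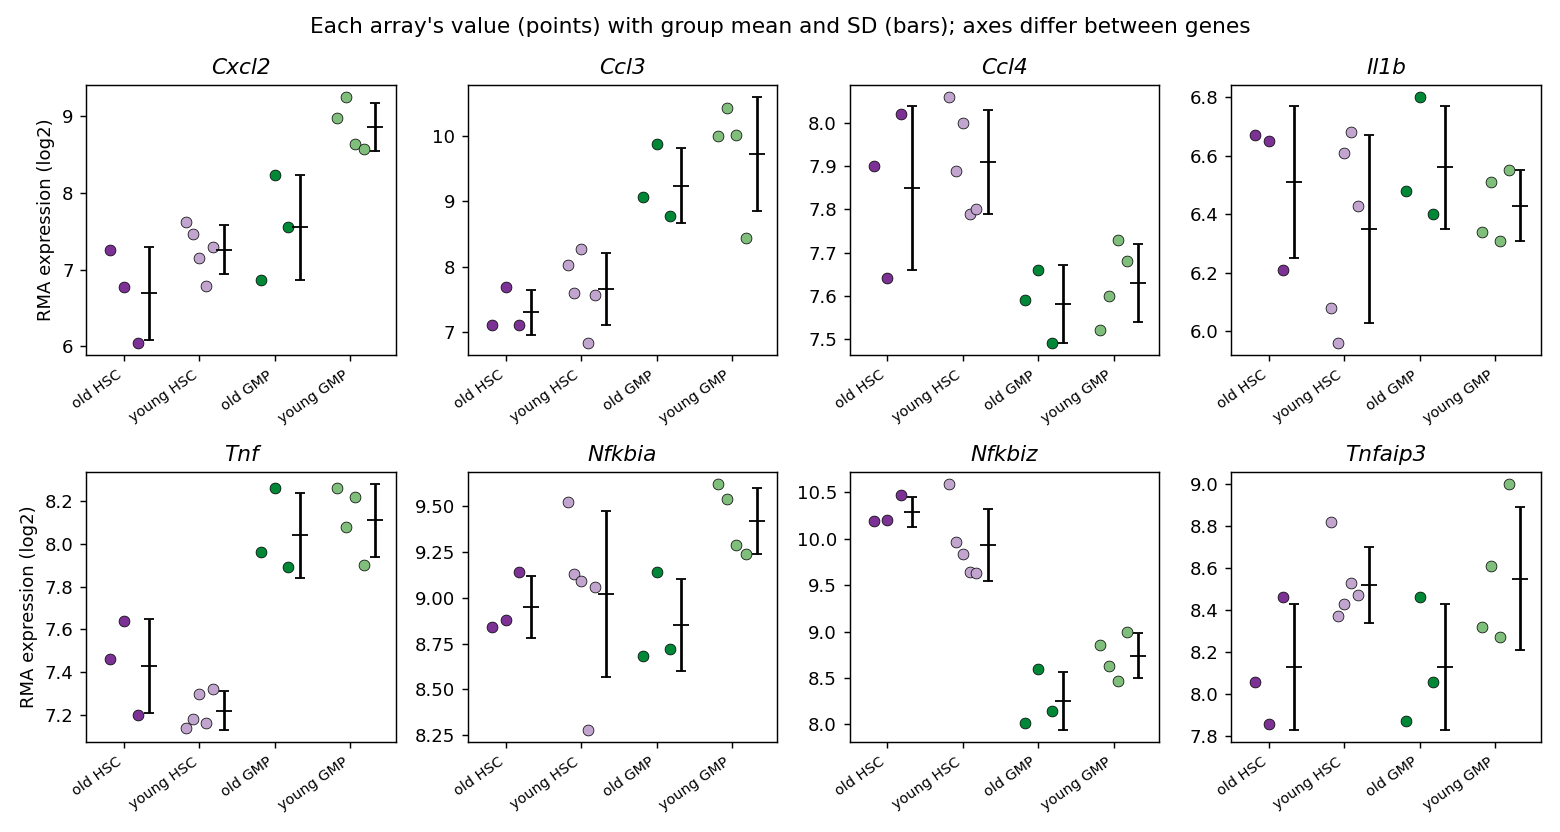
RMA expression in log2 (vertical axes, which differ between genes) of the 8 genes on each of the 15 arrays (points), by group, with the group mean and SD (bars). Ccl3 and Tnf were higher on every GMP array than on every HSC array, Nfkbiz was higher on every HSC array than on every GMP array, and all 4 young GMP arrays lay above all 3 old GMP arrays for Cxcl2.

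Ccl3 encodes MIP-1 alpha, a chemokine that draws monocytes and other leukocytes and that can also hold back the division of early progenitors. It stood at 7.10, 7.69 and 7.10 on the old HSC arrays and at 8.02, 7.59, 8.27, 6.83 and 7.57 on the young HSC arrays. On the GMP arrays it stood at 9.07, 9.88 and 8.77 in old mice and at 9.99, 10.42, 10.02 and 8.44 in young mice. The lowest GMP array, young replicate 4, was still above the highest HSC array. Ccl3 was 4.17-fold lower in young HSC than in young GMP (log2 -2.06 ± 0.33, SE; limma adjusted p = 8.78e-05; n = 5 and 4) and 3.85-fold lower in old HSC than in old GMP (-1.94 ± 0.40; adjusted p = 0.00133; n = 3 and 3). On old HSC replicates 1 and 3 Ccl3 lay near the background level described below for Il1b, which was 7.05 and 6.97 there. On young HSC replicate 4 it lay below that level, which was 7.01. These folds are given as measured, from HSC values partly at background. In sorted bulk RNA, fewer expressing cells and less RNA per cell cannot be told apart.

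Ccl4, which encodes MIP-1 beta, lies next to Ccl3 in the mouse genome, and its values varied far less than those of Ccl3. Each gene was read from 1 probe set, so steadier RNA and a less responsive probe set cannot be told apart. It ranged from 7.64 to 8.02 in old HSC, from 7.79 to 8.06 in young HSC, from 7.49 to 7.66 in old GMP and from 7.52 to 7.73 in young GMP. Over all 15 arrays it spanned 0.57 log2, where Ccl3 spanned 3.59. Its HSC mean was above its GMP mean, by 0.28 ± 0.10 log2 in young mice (limma adjusted p = 0.0572, not called, although those groups did not overlap) and 0.27 ± 0.13 in old mice (adjusted p = 0.145). The value of Ccl3 minus that of Ccl4 on the same array ran in young mice from -0.96 to 0.27 in HSC and from 0.76 to 2.82 in GMP, and in old mice from -0.92 to 0.05 in HSC and from 1.28 to 2.22 in GMP. This difference was looked at after the values of both genes had been seen and is given without a test. The groups did not overlap at either age, which follows from Ccl3 alone, since its HSC and GMP values did not overlap and Ccl4 varied little.

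Cxcl2 encodes MIP-2, a chemokine that draws neutrophils through the receptor CXCR2. Its values were 7.25, 6.77 and 6.04 in old HSC and 7.62, 7.47, 7.15, 6.78 and 7.29 in young HSC. In GMP they were 6.86, 8.23 and 7.56 in old mice and 8.98, 9.25, 8.64 and 8.58 in young mice. The young GMP arrays stood above all others, while the old GMP arrays overlapped with both HSC groups. Cxcl2 was 3.03-fold lower in young HSC than in young GMP (log2 -1.60 ± 0.25; limma adjusted p = 6.78e-05). In old mice the difference was -0.87 ± 0.31 (adjusted p = 0.0492), against an old HSC group in which 1 of the 3 arrays lay above the background level described below for Il1b. It was a call at the threshold that was lost in 10 of the 15 fits that left out 1 array. Those fits gave -1.21 to -0.53 log2, with -0.54 without old HSC replicate 3 and -0.53 without old GMP replicate 2. With array weights it was -0.40 (adjusted p = 0.208).

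Tnf encodes TNF alpha, the cytokine that itself starts NF-kB signalling through TNF receptors. It lay at 7.46, 7.64 and 7.20 in old HSC and between 7.14 and 7.32 in young HSC, against 7.96, 8.26 and 7.89 in old GMP and 8.26, 8.08, 8.22 and 7.90 in young GMP. The HSC and GMP arrays did not overlap. Tnf was 1.86-fold lower in young HSC than in young GMP (log2 -0.89 ± 0.12; limma adjusted p = 6.49e-06) and 1.52-fold lower in old HSC than in old GMP (-0.61 ± 0.14; adjusted p = 0.00318). The HSC values lay not far above the background level described below for Il1b. That level was 6.97 to 7.19 on the old HSC arrays and 6.65 to 7.01 on the young HSC arrays. These folds are therefore given as measured, from HSC values near background.

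Il1b encodes interleukin-1 beta, which is made as a precursor and cut by caspase-1 in inflammasomes. It lay between 5.96 and 6.80 on all 15 arrays. As a measure of background, the 95th percentile of 1190 olfactory and vomeronasal receptor genes, which these cells are not known to use, was 6.65 to 7.19 on the arrays. Il1b stayed below it on all 15, so that no fold is given for it. Cxcl2 was below it on 4 arrays and Ccl3 on 1, and the other 5 genes were above it on every array.

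Among the feedback genes, Nfkbiz set HSC apart from GMP. It stood at 10.19, 10.20 and 10.47 in old HSC and at 10.59, 9.96, 9.84, 9.64 and 9.63 in young HSC. In GMP it stood at 8.01, 8.60 and 8.14 in old mice and at 8.85, 8.63, 8.47 and 9 in young mice. Every HSC array was above every GMP array. The difference was 2.29-fold in young mice (log2 1.20 ± 0.18; limma adjusted p = 3.05e-05) and 4.10-fold in old mice (2.04 ± 0.21; adjusted p = 7.47e-07).

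Nfkbia did not separate the cell types in this way. It lay at 8.84, 8.88 and 9.14 in old HSC, at 9.52, 9.13, 9.09, 8.28 and 9.06 in young HSC, at 8.68, 9.14 and 8.72 in old GMP and at 9.62, 9.54, 9.29 and 9.24 in young GMP. Young HSC and young GMP overlapped, with a log2 difference of -0.40 ± 0.18 (limma adjusted p = 0.119). With the replicate number within each age as a block, the difference was -0.42 ± 0.14 and was called (adjusted p = 0.0432). The block is given here because the deviations of same-numbered young HSC and GMP arrays from their group means correlated, at 0.16 to 0.52. Those of same-numbered old HSC and GMP arrays correlated at 0.05 to 0.42. In old mice the difference was 0.10 ± 0.22, with a 95% interval from -0.36 to 0.56.

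Tnfaip3 was at nearly the same mean in both cell types at each age. It was at 8.13 in old HSC and 8.13 in old GMP, and at 8.52 in young HSC and 8.55 in young GMP. The difference between HSC and GMP was -0.03 log2 in young mice, with a 95% interval from -0.37 to 0.31, and 0.00 in old mice, with an interval from -0.41 to 0.41. An interval of this width includes changes of up to 1.33-fold in either direction in old mice.

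**Figure D2:**
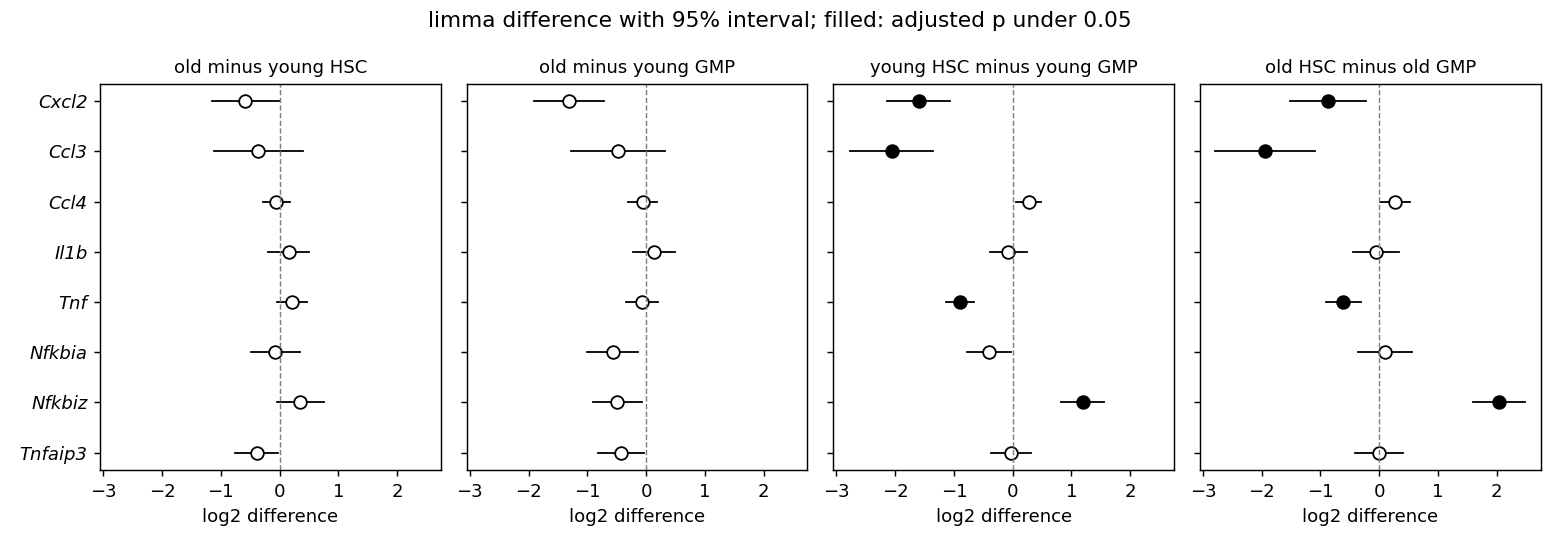
Difference in log2 expression (horizontal axes) of each of the 8 genes in 4 comparisons, as points with 95% intervals from limma. Filled points had an adjusted p under 0.05: Cxcl2, Ccl3, Tnf and Nfkbiz between HSC and GMP at both ages, and no gene with age.

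Markers of other myeloid cells moved with the cell type as well. The mean of 13 monocyte and macrophage markers lay between 6.22 and 6.89 log2 on the HSC arrays and between 7.40 and 7.47 on the GMP arrays. In young mice 6 of these 13 were called lower in HSC, led by Ccr2 and Csf1r, and 0 higher. Csf1r is also on the list of GMP gate and identity genes, so its difference is not particular to monocytes and macrophages. Of all genes 10.9% were lower and 13.6% higher. In old mice 5 were lower and 0 higher, where 13% and 9.25% of all genes were. Of the 13, 6 lay below the lower quartile of genes on all old HSC arrays, 3 on all young HSC, 3 on all old GMP and 2 on all young GMP arrays. The mean of 11 neutrophil markers lay between 6.31 and 6.66 in HSC and between 7.27 and 8 in GMP. The mean of 10 mast cell and basophil markers lay between 6.06 and 6.55 in HSC and between 7.57 and 7.86 in GMP. Of the 10, 7 were called lower and 1 higher in young HSC, led by the basophil protease gene Mcpt8 at -4.45 ± 0.15. Dendritic cell markers went the other way, with some overlap. The mean of 12 lay between 7.42 and 7.86 in HSC and between 6.78 and 7.59 in GMP. In young mice 4 of these 12 were called higher in HSC and 0 lower, and in old mice 3 and 1. Flt3, called higher in young HSC and lower in old HSC, is also on the list of HSC gate and identity genes. The complement genes C1qa, C1qb and C1qc, which mark tissue macrophages, were not called, with means in young mice of 7.24 and 7.37, 7.03 and 7.26, and 6.06 and 6.24 in HSC and GMP. The part of these cells in the levels of Ccl3, Cxcl2 and Tnf was not tested.

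The next comparison asked whether the 8 genes changed with age in HSC. The test called 0 of them in either direction, and old and young arrays overlapped for all 8, where 12.8% of all genes did not overlap. The median difference of the 8 genes was -0.06 log2, against 0.03 for all genes, with 5 of the differences below 0. The largest was that of Cxcl2, -0.58 ± 0.27 (limma adjusted p = 0.159), and the old and young values overlapped. It was -0.25 without old HSC replicate 3 and -0.15 with array weights, and 2 of the 3 old HSC arrays were below background. Tnfaip3 differed by -0.39 ± 0.18 (adjusted p = 0.137), with 7.86 to 8.46 in old HSC and 8.37 to 8.82 in young HSC. Nfkbiz differed by 0.35 ± 0.19 (adjusted p = 0.210) and Tnf by 0.21 ± 0.13 (adjusted p = 0.248). The Nfkbiz difference was 0.03 with the Xist level as a covariate and 0.64 after quantile normalization, and was called under neither. Nfkbia, at -0.07 ± 0.20, and Ccl4, at -0.06 ± 0.11, were near 0, with 95% intervals from -0.48 to 0.34 and from -0.29 to 0.18. For Ccl3, at -0.36 ± 0.36, the interval ran from -1.12 to 0.40, so that changes of more than 2-fold lower were within it.

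These differences depended on the fit. With limma's array weights Ccl3 (log2 -0.67, adjusted p = 0.0240) and Tnfaip3 (-0.41, 0.0131) were called, and so was Il1b, whose values lay below background, but the same fit called 8966 of all 19296 genes. Leaving out both replicate 4 arrays of the young groups called 0 of the 8 genes and 6183 of all genes. With each array's interquartile range as a covariate 0 of the 8 were called and 105 of all genes, and the sign of Ccl3 turned, to 0.27.

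In GMP, Cxcl2 and all 3 feedback genes had lower means in old mice, and 0 of the 8 genes passed the test. Cxcl2 was not called, although its difference, -1.31 ± 0.29 log2 or 2.48-fold, was the 9th largest in size of all 19296 genes (limma unadjusted p = 0.000219, adjusted p = 0.575; n = 3 old and 4 young arrays). Its highest old GMP array, at 8.23, lay below its lowest young GMP array, at 8.58. Its lowest old GMP array, replicate 1 at 6.86, lay just below the background level of 6.98 on that array. Nfkbia differed by -0.57 ± 0.21 (unadjusted p = 0.0115, adjusted p = 0.944), and its highest old array, at 9.14, lay below the lowest young one, at 9.24. Old and young GMP did not overlap for these 2 of the 8 genes, both lower in old mice, where 3.72% of all genes were lower without overlap and 6.83% did not overlap in either direction. The deviations of Cxcl2 and Nfkbia from their group means correlated at 0.86 over the GMP arrays, so the 2 genes may not count separately. Nfkbiz differed by -0.49 ± 0.20 and Tnfaip3 by -0.42 ± 0.18 (both adjusted p = 1), and for both the groups overlapped.

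The median difference of the 8 genes with age in GMP was -0.45 log2, against -0.01 for all genes, and 7 of the 8 differences were below 0. Ccl3 differed by -0.48 ± 0.38, with old GMP at 8.77 to 9.88 and young GMP at 8.44 to 10.42. Tnf, at -0.07 ± 0.13, and Ccl4, at -0.05 ± 0.12, were near 0, with 95% intervals from -0.35 to 0.20 and from -0.30 to 0.19. Young GMP replicate 1, whose Xist was as low as that of the old arrays, had Cxcl2 at 8.98 and Nfkbia at 9.62, both above all old GMP arrays. This is 1 array, and on the other young GMP arrays age and Xist cannot be told apart. Markers of monocytes and macrophages lay at 7.40 to 7.45 in old GMP and 7.41 to 7.47 in young GMP. Neutrophil markers lay at 7.27 to 7.51 and 7.29 to 8, and S100a9, a calcium-binding protein of neutrophils and monocytes, at 9.06 to 9.52 and 9.03 to 12.23. Mast cell and basophil markers lay at 7.67 to 7.86 and 7.57 to 7.65, without overlap. Dendritic cell markers lay at 7.18 to 7.59 and 6.78 to 7.19, with the MHC class II gene H2-Aa at 7.59 to 9.05 and 6.12 to 6.97, and 0 genes of these 4 lists were called. Their part in the difference of Cxcl2 was not tested. Without both young replicate 4 arrays, Cxcl2 was called lower in old GMP (-1.40 log2, adjusted p = 0.0231), in a fit that called 188 of all genes. It was also called with array weights (-1.47, adjusted p = 0.00470), as was Nfkbia (-0.61, adjusted p = 0.0135).

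The age difference in HSC was then set against that in GMP by an interaction term. The test called 0 of the 8 genes, and 0.0933% of all genes. Nfkbiz came nearest. Its difference with age was 0.35 in HSC and -0.49 in GMP, neither of them called, and these differed by 0.84 ± 0.28 log2 (limma unadjusted p = 0.00669, adjusted p = 0.308). All 3 old HSC arrays lay above the young HSC mean of 9.93, and all 3 old GMP arrays lay below the young GMP mean of 8.74. For Cxcl2 the effects differed by 0.73 ± 0.40 (adjusted p = 0.469). For Tnfaip3, with age differences of -0.39 in HSC and -0.42 in GMP, the effects differed by 0.03, with a 95% interval from -0.51 to 0.56.

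The 8 genes did not vary equally between arrays of the same group. The SD within groups was 0.63 log2 for Ccl3 and 0.47 for Cxcl2, against a median of 0.19 over all genes, and they ranked at the 99.8th and 99th percentile of genes by this SD. It was 0.13 for Ccl4 and 0.16 for Tnf, at percentiles 10.9 and 32.3. For Nfkbia, Nfkbiz and Tnfaip3 it lay between 0.28 and 0.32.

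Single arrays were the highest or lowest of their group for several of the genes. In the young groups, Dixon's test for an outlying value passed its critical value in 0 of 22 cases. In old GMP, replicate 2 was the highest of the 3 arrays for all 8 genes. In young HSC, replicate 1 was highest for 5 of the 8, Cxcl2, Ccl4 and the 3 feedback genes. Replicate 4 was lowest in young HSC for Cxcl2, Ccl3, Ccl4 and Nfkbia, and in young GMP for Cxcl2, Ccl3, Tnf and Nfkbia. In young GMP that same array was highest for Nfkbiz and Tnfaip3, both at 9, and for Il1b.

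Ccl3 followed the replicate numbers across cell types in part. Against the mean of its group, it was lowest on replicate 4 in young HSC, by -0.83, and in young GMP, by -1.28. It was highest on replicate 2 in old HSC, by 0.39, and in old GMP, by 0.64, although the labels do not pair these arrays. In young mice the highest arrays differed, with replicate 3 in HSC (0.61) and replicate 2 in GMP (0.70). Replicate 2 of young HSC was at -0.07. With the replicate number within each age as a block, the SE of the Ccl3 difference between HSC and GMP was 0.17 in young mice, against 0.33 without the block.

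Immediate early genes, such as Fos, Egr1 and Nr4a1, are switched on within minutes by growth factors and by stress, including the handling of cells during sorting. The mean of 17 of them was highest within old HSC on replicate 3 (9.72), within young HSC on replicate 1 (9.87) and within old GMP on replicate 2 (8.66). On these same arrays the mean of the 3 feedback genes was highest in its group, at 9.36, 9.65 and 8.73. In HSC this was not particular to these lists. Old HSC replicate 3 and young HSC replicate 1 also had the widest interquartile ranges of their groups, 2.33 and 2.69. Their means of HSC gate and identity genes were the highest as well, at 9.54 and 9.62. Old GMP replicate 2 was the lowest of its group for both, at 2.27 and 7.85. In young GMP the highest arrays differed: immediate early genes were highest on replicate 2 (8.78), in a range from 8.67, and the feedback genes on replicate 4 (9.08). Between ages in GMP the immediate early mean lay at 8.10 to 8.66 in old mice and 8.67 to 8.78 in young mice. These ranges nearly touched, and the lowest old array was replicate 1, with the other old arrays at 8.62 and 8.66. The largest age differences among immediate early genes in GMP were those of Fosb, -0.82 ± 0.22 log2 (limma adjusted p = 0.653), and Fos, -0.56 ± 0.21 (adjusted p = 0.990). The part of cell handling in the levels of the 8 genes was not tested.

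**Figure D3:**
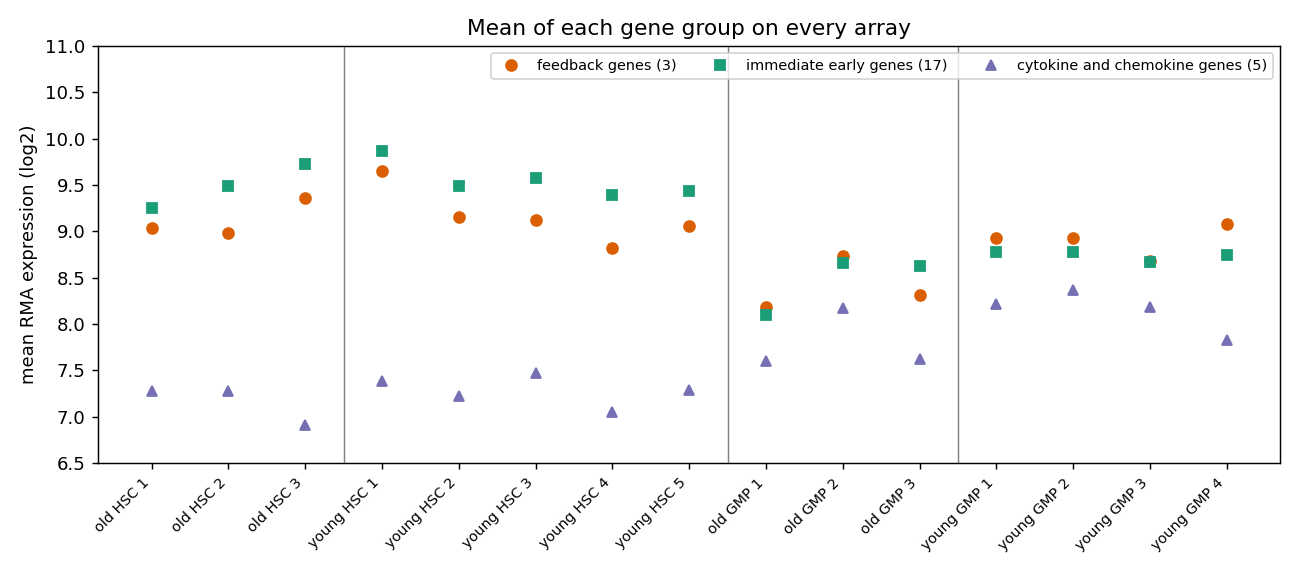
Mean log2 expression (vertical axis) of the 3 feedback genes, 17 immediate early genes and 5 cytokine and chemokine genes on each of the 15 arrays (horizontal axis), with grey lines between groups. Within old HSC, young HSC and old GMP the array with the highest immediate early mean (9.72, 9.87 and 8.66) also had the highest feedback mean. In both HSC groups that array also had the widest interquartile range.

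Immediate early genes also separated the cell types, in the direction of Nfkbiz. In young mice 12 of 17 were higher in HSC than in GMP and 1 lower, where 13.6% and 10.9% of all genes were. In old mice 13 were higher and 1 lower, where 9.25% and 13% of all genes were. Nr4a1, a nuclear receptor, was 6.76-fold higher in young HSC (log2 2.76 ± 0.17; limma adjusted p = 2.25e-10), and Egr1, a zinc finger factor, 4.97-fold (2.31 ± 0.20). The heat shock gene Hspa1a was the exception, 3.04-fold lower in young HSC.

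The genes whose profiles over the 15 arrays were most like those of the members were found by the root mean square difference of values centred on each gene's mean. For Ccl3 these were Prtn3, the granule protease proteinase 3, at 0.35 log2, Fcer1g, the common Fc receptor gamma chain, at 0.44, and Itga1, an integrin, at 0.45, where Ccl3 itself varied by 1.15 about its mean. In HSC, Prtn3 was at 8.29 ± 0.14 (SD, 3 arrays) in old mice and 8.42 ± 0.46 (5 arrays) in young mice. In GMP it was at 10.38 ± 0.04 (3 arrays) and 10.75 ± 0.63 (4 arrays). For Cxcl2 they were Snora73a, Xlr and Cd14, at 0.44 to 0.46, with 0.89 for Cxcl2 itself. Cd14, the co-receptor for bacterial lipopolysaccharide, had means of 6.52 and 6.58 in old and young HSC, 7.13 in old GMP and 7.81 in young GMP.

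For Tnf the nearest were Hfe, Apba1 and Themis2, at 0.14 to 0.15 (0.42 for Tnf itself), and for Nfkbiz Plekha5, Arhgap6 and Zfp37, at 0.27 to 0.28 (0.84). For Nfkbia they were Rbis, Ocel1 and Zkscan4, at 0.20 to 0.22 (0.35), and for Tnfaip3 Pld1, Slc30a1 and Clk4, at 0.19 to 0.21 (0.31). Ccl4 lay nearest to Pip5k1c, Kansl3 and Ell, at 0.08 to 0.10 (0.18). The nearest gene to Il1b was Olfr275, an olfactory receptor gene, at 0.09 (0.23). No member was among the 3 nearest to another. The member that ranked nearest to another was Cxcl2, the 199th nearest gene to Ccl3, at 0.67.

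Around these 8 genes, 88 of 96 listed genes of the pathway were measured. In young mice 21 of the 88 were called higher and 12 lower in HSC than in GMP, where 13.6% and 10.9% of all genes were. In old mice 18 were higher and 15 lower, where 9.25% and 13% of all genes were. With age 2 were higher and 5 lower in HSC, where 11.5% of all genes were called, and 0 were called in GMP, where 0% of all genes were. Several of the genes named below lay under the background level in the group where they were lower. Their differences are then given as measured, with the levels, and not as a fold.

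Of 16 measured receptors, 4 were lower in young HSC and 0 higher, where 10.9% and 13.6% of all genes were. In old mice 5 were lower and 1 higher, where 13% and 9.25% of all genes were. Their median difference in young mice was -0.08 log2, against -0.05 for all genes. Cxcr2, the receptor for the Cxcl2 product, stood at 8.34 in young GMP and 8.68 in old GMP and below background in HSC, at 5.98 and 5.69 (log2 differences -2.36 ± 0.18 and -3.00 ± 0.22; limma adjusted p = 7.77e-09 and 8.71e-09). Cd14 stood at 7.81 in young GMP and, below background, at 6.58 in young HSC. Tlr1, a Toll-like receptor, was lower in young HSC, at 5.39, than in young GMP, at 6.85, itself near background. Ccr1, a receptor for the Ccl3 product, was called lower in old HSC (-0.65 ± 0.13; adjusted p = 0.000822), but its levels of 4.45 to 4.75 in old HSC and 5.15 to 5.31 in old GMP lay below the background described for Il1b. With age in HSC, Cxcr1 was called higher, by 0.58 ± 0.15 (adjusted p = 0.0239).

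Of 16 genes listed as IkB family and other brakes, without the 3 members, 9 were higher in young HSC and 1 lower, where 13.6% and 10.9% of all genes were. The list is by name and does not show that each gene restrains NF-kB in these cells. In old mice 7 were higher and 2 lower, where 9.25% and 13% of all genes were. Their median difference was 0.34 log2 in young mice, against -0.05 for all genes. The largest was that of Tnip3, whose product binds A20: it stood at 9.24 in young HSC and 9.23 in old HSC, and below background in GMP, at 5.56 and 5.73 (log2 differences 3.68 ± 0.17 and 3.50 ± 0.20; limma adjusted p = 3.50e-12 and 2.57e-10). Zfp36 and Zfp36l1 encode proteins that destabilise cytokine mRNAs. Zfp36 was 1.70-fold higher in young HSC, and Zfp36l1 stood at 7.99 there and at 6.67, below background, in young GMP. Nfkbid, an atypical IkB gene, was 1.99-fold higher there. Nfkbib, the gene of IkB beta, went the other way and was 1.71-fold lower in old HSC than in old GMP (-0.77 ± 0.14; adjusted p = 0.000393). It was also 1.72-fold lower in old than in young HSC (-0.79 ± 0.13; adjusted p = 0.00193), as was Tnip1 at 1.36-fold (adjusted p = 0.0462).

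Of 4 measured NF-kB subunit genes, Rela, the activating p65 subunit, was 1.77-fold higher in young HSC than in young GMP (log2 0.82 ± 0.11; limma adjusted p = 1.65e-05), and Rel was 1.40-fold lower. In old mice Rel was 1.61-fold lower and Rela was not called, at 0.30 ± 0.14 (adjusted p = 0.143). Of 21 kinases and adaptors 4 were higher in HSC at each age, with 0 lower in young and 1 in old mice, where 13.6% of all genes were higher in young and 9.25% in old HSC. They included Birc2, the gene of a ubiquitin ligase of TNF receptor complexes, 2.04-fold higher in young HSC, and Traf1, with means of 6.38 and 5.33, both below background.

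Other NF-kB target cytokines and effectors split: of 23, 5 were higher and 3 lower in young HSC, where 13.6% and 10.9% of all genes were. Ccl9, a chemokine gene close to Ccl3 and Ccl4 in the genome, stood at 9.86 in young GMP and, at about background, at 6.77 in young HSC (log2 -3.09 ± 0.16; limma adjusted p = 1.69e-11). Ccl6 stood at 7.32 and, below background, at 6.27, and Cxcl10 at 8.15 and 6.95. Ptgs2, the gene of the cyclooxygenase COX-2, was 3.50-fold higher in young HSC and 6.84-fold higher in old HSC. With age in HSC, Sod2 fell by 0.76 log2 and Bcl2l1 fell by 0.50, and Ccl2 rose by 0.48 (adjusted p = 0.0138, 0.0301 and 0.0404). In GMP the largest age differences were those of Cxcl10, -0.84 ± 0.22, and Ptgs2, -0.78 ± 0.35, neither of them called.

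Of 8 genes of interleukin-1 processing, Il18, a cytokine gene of the interleukin-1 family, stood at 8.16 in young HSC and, below background, at 5.32 in young GMP (log2 2.84 ± 0.19; limma adjusted p = 1.27e-09). It was 1.68-fold lower in old than in young HSC (adjusted p = 0.0301). The inflammasome sensor genes Nlrc4 and Nlrp3 were called lower in young HSC than in young GMP, with GMP means of 6.80 and 6.76 that were themselves near background, and Casp4 was 1.58-fold higher.

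**Figure D4:**
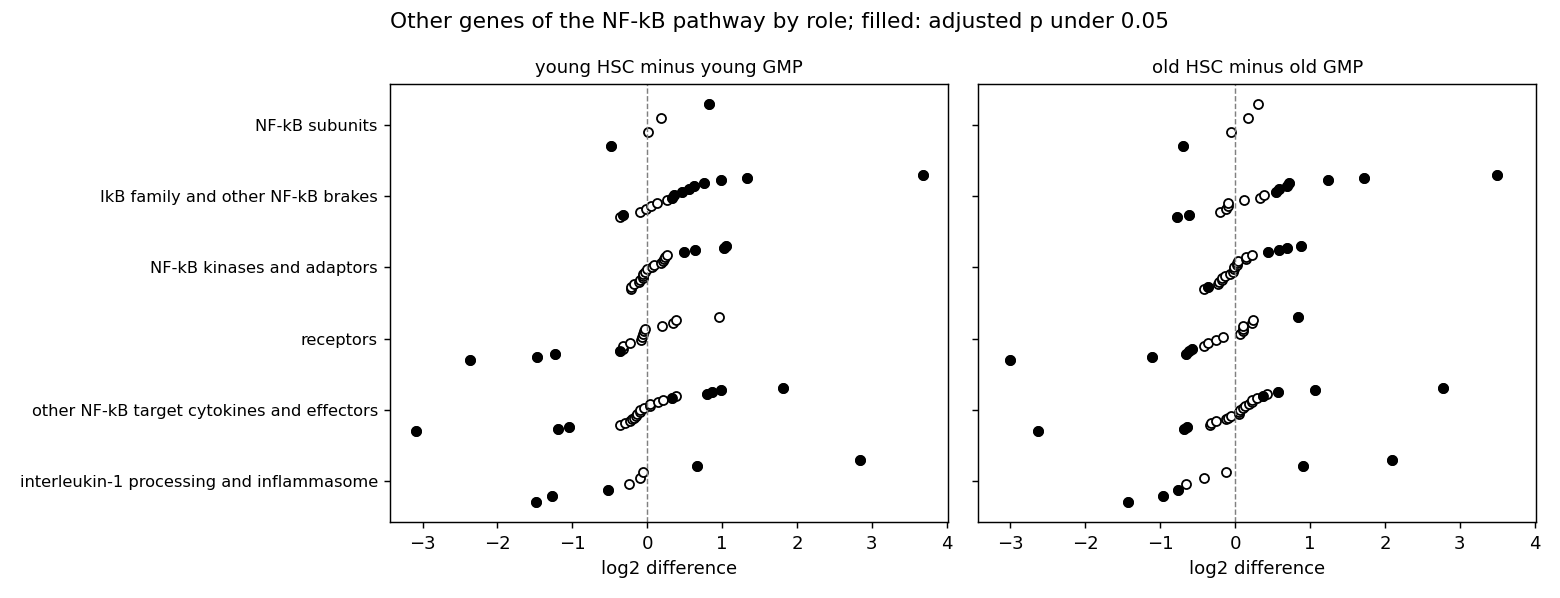
Difference in log2 expression between HSC and GMP (horizontal axes) in young mice (left) and old mice (right) for the 88 other pathway genes, 1 point per gene, in rows by role. Filled points had an adjusted p under 0.05: among the IkB family and other brakes 9 of 16 were higher in young HSC, led by Tnip3 at 3.68, and among the receptors 4 of 16 were lower, led by Cxcr2 at -2.36.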

How the data were processed

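Total RNA of sorted cells was amplified with a NuGEN kit and hybridised as biotin-labelled cDNA, per the labels' protocols. The authors deposited log2 values for 23309 probe sets on 15 arrays. RMA, affy and limma are named without versions per the submitters' processing notes, and the log2 scale was read from the values. Of the probe sets, 20728 had 1 gene symbol in the platform annotation, and the others were left out. The brightest probe set of a gene was used, which left 19296 genes. With limma 3.58.1 in R 4.3.3, all 15 arrays entered 1 model with a mean for each group, default empirical Bayes moderation and Benjamini-Hochberg adjustment over all genes, and genes with an adjusted p under 0.05 were called. No genes were filtered out. The fit was tested on simulated data. The number of arrays limits the precision.

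Alternatives were quantile normalization, a filter on low values, the interquartile range as a covariate, the replicate number as a block, array weights, trend and robust moderation, fitting only the groups compared, leaving out arrays and averaging a gene's probe sets. The Xist covariate and the block within age were chosen after seeing the data. Versions, filters and a genome build are not given in the sources used here.

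Members and lists were chosen with earlier results of these data known. Named were the 8 members, up to 4 called genes per list (up to 2 where none was called), gate genes, and the 3 genes most like each member. The deviations of same-numbered arrays from their group means correlated at 0.16 to 0.52 for young HSC with young GMP, at 0.05 to 0.42 for old HSC with old GMP and at -0.24 to 0.15 across ages. The main fit paired no arrays, and replicate numbers entered only as a block in alternative fits. The labels do not say what the replicate numbers mean.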

Additional observations from a re-analysis of the deposited data

How the results depend on the processing

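Between HSC and GMP, Ccl3, Tnf and Nfkbiz at both ages and Cxcl2 in young mice were called with the same sign under all 26 alternatives. The other calls depended on the processing, and their causes were not tested. With age in HSC, where 2213 genes were called, the count was 1305 after quantile normalization, 105 with the interquartile range as a covariate, 8966 with array weights (3 members called), 871 with only the groups compared, 6183 without both replicate 4 arrays and 3571 with the Xist level as a covariate. Leaving out 1 array gave 345 (old HSC replicate 2) to 5312 (young HSC replicate 4), with 0 members called each time. With age in GMP, where 0 genes were called and 870 had an unadjusted p under 0.05, limma called 832 with array weights (2 members) and 188 without both replicate 4 arrays (1 member), and 0 to 12 without 1 array, the highest without young GMP replicate 4. For the difference of the age effects, where 18 genes were called, the count was 5 after quantile normalization, 5 with the interquartile range, 2407 with array weights (2 members, Cxcl2 at 1.31 and Nfkbiz at 0.67) and 145 without both replicate 4 arrays, and 1 to 192 without 1 array, the highest without young HSC replicate 4. Between HSC and GMP in old mice array weights called 7494 genes, against 4292. Replicate numbers were also used as a block across all arrays, although the labels do not pair same-numbered arrays. Across ages, the deviations of same-numbered arrays correlated at only -0.24 to 0.15. With this replicate block 6280 genes and 2 members (Cxcl2 at -0.70 and Ccl3 at -0.74) were called with age in HSC. It called 232 genes and 1 member (Cxcl2 at -1.44) with age in GMP, and 41 genes for the difference of the age effects. The block within age changed no call of a member between HSC and GMP other than that of Nfkbia in young mice.

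The Cxcl2 call in old mice was also lost with the interquartile range (-0.75), with trend and robust moderation (-0.87), with only the groups compared (-0.87) and with Xist (-0.88). In young mice Ccl4 was called under 9 of 26 alternatives, at 0.18 to 0.32 over all of them, among them the fits without young HSC replicate 4, old HSC replicate 2 and old HSC replicate 3. Nfkbia was called under 4, among them the fit without young HSC replicate 1 (-0.53). Signs turned only for differences that were not called. With age in HSC this was so for Ccl4 (0.03) and Nfkbia (0.23) after quantile normalization, and for Ccl3 (0.27), Ccl4 (0.03), Il1b (-0.18) and Nfkbia (0.38) with the interquartile range. For the difference of the age effects it was so for Ccl4 (0.05) and Il1b (-0.11) after quantile normalization, for Ccl4 (0.07), Il1b (-0.25) and Tnfaip3 (-0.01) with the interquartile range, and for Tnfaip3 with array weights (-0.06) and without both replicate 4 arrays (-0.12). Between HSC and GMP it was so for Il1b (0.01, young) and Tnfaip3 (-0.03, old) with the interquartile range, for Tnfaip3 without both replicate 4 arrays (0.12, young), and in old mice with array weights for Il1b (0.05), Nfkbia (-0.02) and Tnfaip3 (-0.07). Without 1 array, the differences with age in HSC ran from -0.14 to 0.05 for Ccl4 and from -0.25 to 0.06 for Nfkbia. Those of the age effects ran from -0.12 to 0.54 for Ccl3, -0.09 to 0.10 for Ccl4, -0.07 to 0.17 for Il1b and -0.14 to 0.19 for Tnfaip3. Those between HSC and GMP ran from -0.16 to 0.02 (young) and -0.14 to 0.10 (old) for Il1b, and from -0.12 to 0.12 (young) and -0.17 to 0.17 (old) for Tnfaip3.

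Other probe sets were not tried, since each member had 1, and Il1b was removed by the filter on low values. The small number of arrays, the background level of Il1b, and the overlap of age with Xist limit what these data can show about age.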
